A study of Homo sapiens with 12 samples.

Results

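The 8 genes described here encode receptor tyrosine kinases that bind growth factors at the cell surface: the insulin receptor INSR and its relative IGF1R, the EGF receptor family members EGFR, ERBB2 and ERBB3, the HGF receptor MET and its relative MST1R (also called RON), and the GAS6 receptor AXL. They were chosen by name, and their exon-skipping events were found by matching the strand, exon length and intron lengths of every listed event to the GENCODE annotation. The RNA-seq table held 124 events in all 8 receptors, of 114816 events and 12974 named genes. The RASL-seq table held 5 events in 4 of them, 1 each in MET, EGFR and AXL and 2 in ERBB2, of 2023 events and 1431 named genes. RASL-seq counts ligated oligonucleotide pairs at chosen splice junctions, and every RASL-seq event lay on the plus strand, so that INSR and MST1R, on the minus strand, could not be seen there. IGF1R and ERBB3 had 0 RASL-seq events.

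GS689 (labelled GS689.Li) and PC3E are prostate cancer cell lines, known as sublines of the PC-3 line. Both are labelled wild type, were grown in DMEM/F12 with serum, non-essential amino acids and the drug G418, and were harvested a night after plating. Each line gave 3 RASL-seq and 3 RNA-seq libraries, and no label says whether these came from separate cultures. The RNA-seq table names its libraries only as a first and a second set of 3, called set 1 and set 2 here and given to neither line, so that RNA-seq values are descriptions with no test of the lines.

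A ligand brings 2 receptor molecules together, their kinase domains phosphorylate each other, and adaptor proteins then couple the receptor to the RAS and PI3 kinase pathways. CBL ubiquitin ligases, phosphatases and endocytosis end the signal. HGF and the MST1R ligand are made as inactive precursors that surface proteases such as matriptase (ST14) cleave, and the SPINT proteins inhibit those proteases. Several of the receptors are made in splice forms with different properties: the insulin receptor without exon 11 binds IGF2 more strongly than the form with it, and MST1R without exon 11 is known as an active form held inside the cell.

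The 3 exons shown next were, of the exons of the principal transcripts measured here, those skipped most often in RNA-seq, at 35.2% inclusion for INSR exon 11, 68.0% for MST1R exon 11 and 64.2% for AXL exon 10 over all 6 libraries. Each has a whole number of codons, so that skipping it keeps the reading frame. Capitals mark the exon, and the 15 flanking bases on each side in lower case are those of the neighbouring exons in the spliced transcript, read 5′ to 3′ from the GENCODE 29 transcript sequences. INSR exon 11 is 36 nt or 12 codons on the minus strand (hg19 chr19:7150508-7150543), MST1R exon 11 is 147 nt or 49 codons on the minus strand (hg19 chr3:49933394-49933540), and AXL exon 10 is 27 nt or 9 codons on the plus strand (hg19 chr19:41745599-41745625). All are coding exons.
INSR exon 11: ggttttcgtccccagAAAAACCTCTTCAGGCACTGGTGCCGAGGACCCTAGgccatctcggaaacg
MST1R exon 11: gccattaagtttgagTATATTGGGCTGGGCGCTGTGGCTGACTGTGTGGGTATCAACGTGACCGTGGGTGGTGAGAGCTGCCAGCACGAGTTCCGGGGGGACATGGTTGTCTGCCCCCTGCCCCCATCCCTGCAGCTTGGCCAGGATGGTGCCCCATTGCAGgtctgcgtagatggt
AXL exon 10: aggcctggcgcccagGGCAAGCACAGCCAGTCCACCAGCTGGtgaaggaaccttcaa

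Of all receptor exons measured by RNA-seq, INSR exon 11 stood furthest apart between the sets. The inclusion level compares the counts that include an exon with those of the event's skipping junction, after dividing each by its effective length. It is not a share of all transcripts, since an inclusion count can take in a junction shared with another form of the exon. INSR exon 11 was included at 11.2%, 8.26% and 11.5% in the libraries of set 2, and at 44.1%, 83.7% and 47.3% in those of set 1. The short form thus prevailed over the long one in set 2, the sets did not overlap, and library 2 of set 1 lay well above the other libraries. The counts behind these levels were small: the libraries of set 2 gave 9, 8 and 7 inclusion counts against 53, 66 and 40 skipping counts. Those of set 1 gave 35, 76 and 35 inclusion counts against 33, 11 and 29 skipping counts. The 95% Wilson intervals, which cover counting error only, reached at most 22.1% in set 2 and began at 33.0% or above in set 1. Without library 2 of set 1 the sets stayed as far apart, by 32.6 percentage points, since the other 2 libraries of set 1 held its lower values.

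MST1R exon 11 lies in the extracellular part of the receptor, and its level was also lower in set 2. It was included at 56.9%, 60.3% and 56.6% in set 2, and at 73.1%, 77.9% and 72.5% in set 1, on 382 to 598 counts in each library of set 2 and 708 to 839 in each of set 1. The sets did not overlap and stood 12.1 points apart, and library 2 was again the highest of set 1. AXL exon 10, whose presence gives the longer of the known AXL forms, was included at a like level throughout, at 61.1%, 63.2% and 69.1% from lowest to highest in set 2 and 63.7%, 65.0% and 70.5% in set 1. Its sets overlapped.

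INSR exon 11 and MST1R exon 11 were the only receptor events whose sets stood at least 5 points apart. They were 2 of the 107 receptor events with at least 20 counts in every library, or 1.87%, against 1.13% of the 90656 events measured over the whole table, and both were lower in set 2, as were 0.656% of all measured events; 0 receptor events were higher in set 2 by that gap, against 0.471% of all. With any gap counted, 10 of the 107 events, or 9.35%, had sets that did not overlap, against 9.72% of all measured events. The receptors as a group were therefore about as often apart as other genes.

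**Figure D1:**
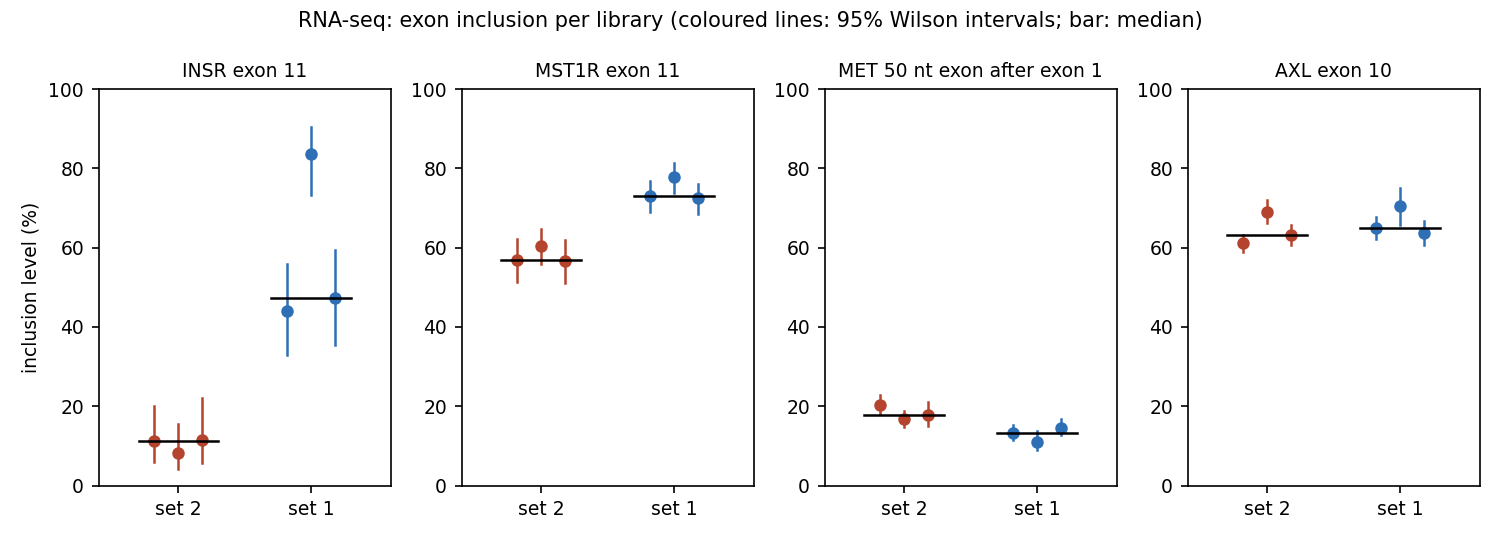
Inclusion level in percent (y axis) of 4 receptor exons in the RNA-seq libraries of set 2 (left, red) and set 1 (right, blue); points are libraries, coloured lines are 95% Wilson intervals and black bars are set medians. INSR exon 11 lies between 8.26% and 11.5% in set 2 and between 44.1% and 83.7% in set 1, MST1R exon 11 is also lower in set 2, and AXL exon 10 overlaps.

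Most receptor events had few skipping counts. Of the 107 measured events, 94 had an inclusion level of at least 95% in every library. That held for 3 of 3 events of IGF1R, 9 of 9 of EGFR, 3 of 3 of ERBB3, 21 of 22 of ERBB2, 21 of 22 of MET, 16 of 17 of AXL, 20 of 28 of MST1R and 1 of 3 of INSR. INSR exon 14, of 160 nt, was at 100% in all libraries but 1 of set 1, which had 94.4%. ERBB3 had 10 events, of which 7 fell short of 20 counts in some library, and MST1R, EGFR and ERBB2 had 5, 1 and 4 such events.

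MST1R was the receptor with the most partly skipped exons. Besides exon 11, 7 of its events had a library with an inclusion level under 95%, and in all 7 the sets overlapped. They run along the whole gene. At the 5′ end, exon 2 measured against exons 1 and 4 had a median of 90.9% in set 2 and 88.6% in set 1, and exon 3 against the same neighbours had 91.0% and 89.0%; these 2 events share their skipping counts, since both compare with the junction that joins exon 1 to exon 4. In the middle, the medians of set 2 and set 1 were 97.6% and 98.8% for exon 6 and 97.4% and 96.9% for exon 14. Exon 9 had medians of 98% and 94.5% against an alternative start of exon 10, on 240 and 323 inclusion counts. Against the regular exon 10, on 880 and 1122 inclusion counts, exon 9 had 99.4% in set 2 and 99.0% in set 1. In the part that encodes the kinase domain, exon 18 had medians of 90.0% in set 2 and 93.6% in set 1, and exon 19 had 93.0% in set 2 and 93.2% in set 1.

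The remaining named exon lies in MET, between its exons 1 and 2. It is 50 nt long (hg19 chr7:116335804-116335853, plus strand), is annotated as partly coding in a transcript other than the principal one, and was measured by both assays. In RNA-seq it was included at 16.8%, 17.8% and 20.3% in set 2, from lowest to highest, and at 11.1%, 13.4% and 14.6% in set 1. The sets did not overlap, with a gap of 2.15 points, which is under the 5 points used for a call.

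In RASL-seq the lines are named, and MET was the 1 receptor of the 3 tested whose splicing passed the test. The MET exon was included at 22.4%, 22.4% and 21.8% in the GS689 libraries and at 16.0%, 16.3% and 18.1% in the PC3E libraries, on 1650 to 3434 counts in GS689 and 1943 to 2630 in PC3E. The lines did not overlap, as in 23.6% of all tested events. The level averaged 22.2% ± 0.373 in GS689 and 16.8% ± 1.12 in PC3E (SD, n = 3 each), a difference of 5.4 points (quasi-binomial model moderated with limma, adjusted p = 0.00302). Calls, at an adjusted p under 0.05 and a change of at least 5 points, were made for 5.87% of the 1124 events tested. The difference was close to that minimum: without PC3E replicate 1 it was just under 5.0 points (adjusted p = 0.0217 in the same limma-moderated model), and limma on the log2 ratio of the 2 forms gave adjusted p = 0.312 with a pseudocount of 0.5, so that the call was lost. Over all alternatives the adjusted p ranged between 0.00108 and 0.312.

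The other RASL-seq exons of the receptors did not pass the test or held too few counts. EGFR exon 4 (135 nt, hg19 chr7:55214299-55214433), in the extracellular part, was included at 96.1%, 96.5% and 91.4% in GS689 and at 92.3%, 100% and 97.1% in PC3E. The lines overlapped, with means of 94.7% ± 2.85 in GS689 and 96.5% ± 3.87 in PC3E (SD, n = 3 each; limma-moderated adjusted p = 0.82). In RNA-seq the same exon was included at 99.0% over all 6 libraries. ERBB2 exon 26 (253 nt, hg19 chr17:37883548-37883800), near the 3′ end of the coding sequence, was included at 68.4%, 75% and 88.9% in GS689 and at 80%, 95% and 100% in PC3E, on 9 to 19 counts in GS689 and 15 to 25 in PC3E.

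Its mean was 77.4% ± 10.4 in GS689 and 91.7% ± 10.4 in PC3E (SD, n = 3 each), a difference of -14.2 points that did not pass (limma-moderated unadjusted p = 0.0452, adjusted p = 0.235). In RNA-seq ERBB2 exon 26 was included at 99.5% over all 6 libraries, so the assays gave different levels for it. AXL exon 10 had 23 counts that included it and 6 that skipped it in GS689, and 9 and 0 in PC3E, too few to test. A 51 nt noncoding exon at the 5′ end of ERBB2 had 4 inclusion counts in GS689 and 8 in PC3E, with 0 skipping counts in either. In RNA-seq this exon had 1 inclusion and 12 skipping counts in set 2, and 6 and 3 in set 1. Skipping was thus seen only in RNA-seq, and the counts were low in both assays.

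A few other exons of these receptors are known for skipped forms, and they were singled out here after their values were seen. ERBB2 exon 16 (48 nt), whose loss gives a known activated form, had 21 skipping against 942 inclusion counts in set 2 and 37 against 1738 in set 1, or an inclusion level of 96.9% over all libraries. MET exon 14 (141 nt), which holds the site by which CBL binds, had 0 skipping counts in set 2 and 2 in set 1, against 10098 inclusion counts in set 2 and 7417 in set 1. ERBB2 also had a 117 nt exon between exons 9 and 10 that was mostly left out: it was included at 2.16% over all libraries, with 23 inclusion counts in set 2 and 62 in set 1.

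The summed counts of both splice forms over a gene's events gave its total. In RASL-seq, 0 of the 3 receptors tested passed (limma-voom, adjusted p under 0.05; 0 also at an unadjusted p under 0.05, and 0 by limma with a trend), against 29.7% of the 1317 genes tested. The lines overlapped in all 3, whereas they did not overlap in 46.4% of all genes tested. In bulk RNA, fewer cells that express a gene and less RNA per cell cannot be told apart. MET had 3530, 3890 and 2670 CPM (counts scaled to a library of 1e6 counts) in GS689 and 3110, 2520 and 2760 CPM in PC3E. The ranges overlapped, and the log2 change was 0.26 (95% interval -0.07 to 0.59, limma-voom adjusted p = 0.222). With inclusion counts alone it was 0.68 (limma-voom adjusted p = 0.0121).

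EGFR had 266, 172 and 282 CPM in GS689 and 278, 231 and 269 CPM in PC3E, a log2 change of -0.15 (95% interval -0.59 to 0.28, limma-voom adjusted p = 0.6). ERBB2 had 22.6, 20.6 and 14.6 CPM in GS689 and 21.3, 29.9 and 30.3 CPM in PC3E, a log2 change of -0.45 (95% interval -1.18 to 0.28, limma-voom adjusted p = 0.332). Both overlapped between the lines, and the intervals allow changes of either sign. AXL had 15, 5 and 9 counts in GS689 and 5, 1 and 3 counts in PC3E, which was too low for the test. Its levels of 12.0 ± 5.18 CPM in GS689 and 3.52 ± 2.31 CPM in PC3E (SD, n = 3 each) barely failed to overlap. GS689 replicate 2, at 6.05 CPM, and PC3E replicate 1, at 5.91 CPM, both had 5 counts.

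**Figure D2:**
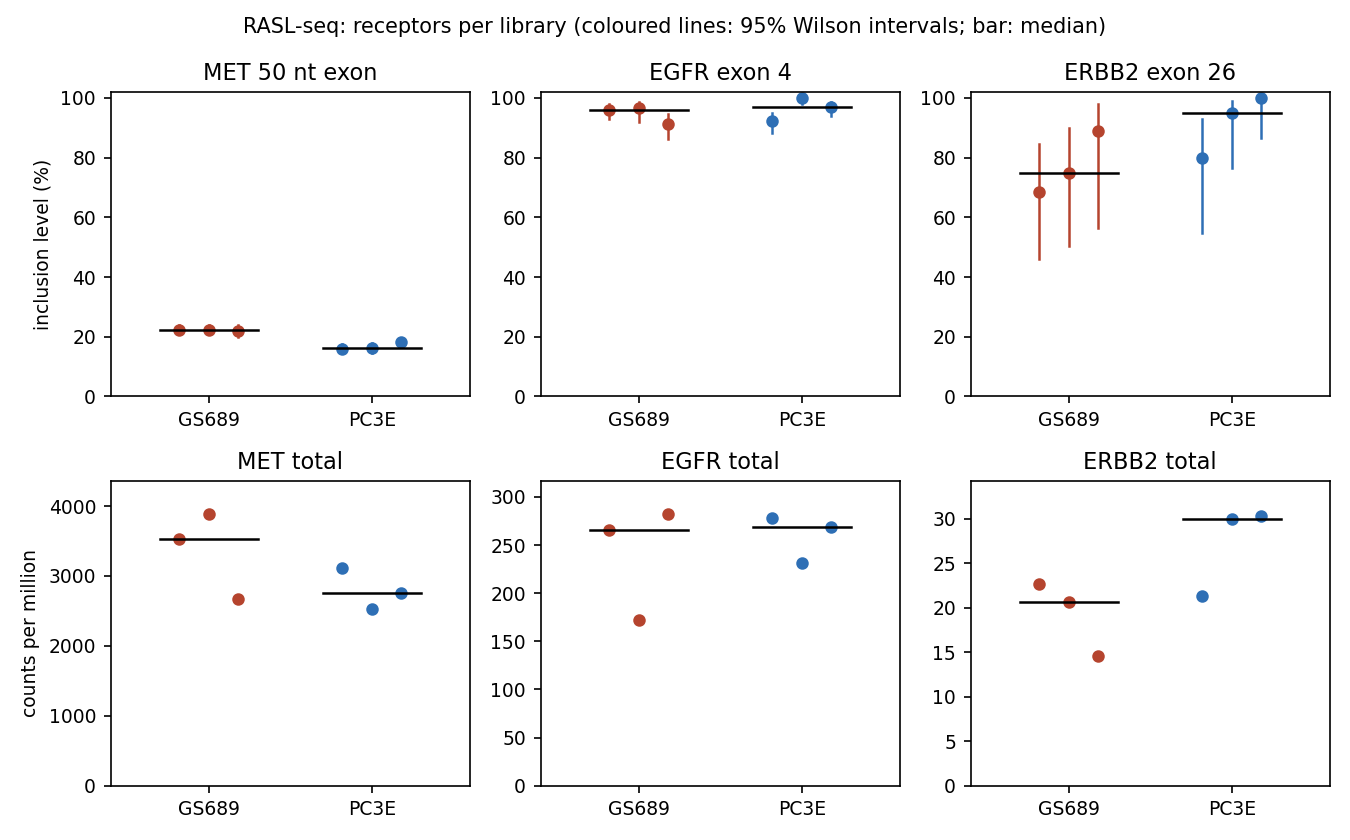
RASL-seq inclusion level in percent (upper row) and total CPM (lower row) of the 3 receptors tested, with GS689 (left, red) and PC3E (right, blue); points are libraries, coloured lines are 95% Wilson intervals and black bars are medians. The MET exon lies between 21.8% and 22.4% in GS689 and between 16.0% and 18.1% in PC3E, while the totals of all 3 receptors overlap between the lines.

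The RNA-seq totals covered all 8 receptors, in CPM of the table total, and ERBB3 stood furthest apart. ERBB3 pairs with ERBB2 to bind neuregulins and has little kinase activity of its own. It had 2.53, 4.90 and 2.13 CPM in set 2 and 17.8, 30.1 and 26.4 CPM in set 1. No library of set 2 came near those of set 1, and the median of set 2 was 10.5-fold lower, a log2 ratio at percentile 0.703 of the 10813 genes measured. ERBB2, the partner with no known ligand, was lower in set 2 by a smaller ratio, with 87.2, 94.3 and 80.8 CPM in set 2 and 107, 162 and 137 CPM in set 1, a ratio of medians of 0.638. Its sets did not overlap. EGFR had 100.3, 79.6 and 59.4 CPM in set 2 and 83.2, 47.7 and 85.5 CPM in set 1, and overlapped.

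IGF1R, the receptor for IGF1 and IGF2, was higher in set 2. It had 7.11, 5.63 and 4.74 CPM in set 2 and 2.17, 1.21 and 1.70 CPM in set 1, which did not overlap, with a ratio of medians of 3.3. INSR, its close relative, had 3.22, 3.45 and 1.98 CPM in set 2 and 2.62, 2.24 and 2.80 CPM in set 1, and its sets overlapped. The insulin receptor thus differed between the sets in which form was made and not, beyond the spread of the libraries, in its total.

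AXL, which binds GAS6 and is often high in mesenchymal cancer cells, had 420, 226 and 342 CPM in set 2 and 207, 65.7 and 145 CPM in set 1. The sets did not overlap, the ratio of medians was 2.36, and library 2 of set 1 was the lowest of all. MET had 673, 609 and 371 CPM in set 2 and 371, 284 and 368 CPM in set 1, a ratio of medians of 1.65. The lowest library of set 2, at 371.4 CPM, lay barely above the highest of set 1, at 371.1 CPM, and with scaling by median of ratios the MET sets overlapped. MST1R had 158, 190 and 132 CPM in set 2 and 183, 147 and 163 CPM in set 1, and overlapped.

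In all, 5 of the 8 receptors had totals whose sets did not overlap, as did 48.3% of the 10813 genes measured, so that this count is near the background. Among the 5, IGF1R and AXL were over 2-fold higher in set 2, as were 9.73% of all genes, and ERBB3 was over 2-fold lower, as were 5.64%. Without library 2 of set 1 the log2 ratio of AXL was 0.96, which is under 2-fold. The median log2 ratio of all genes was 0.11 with table totals and 0.01 with median of ratios.

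**Figure D3:**
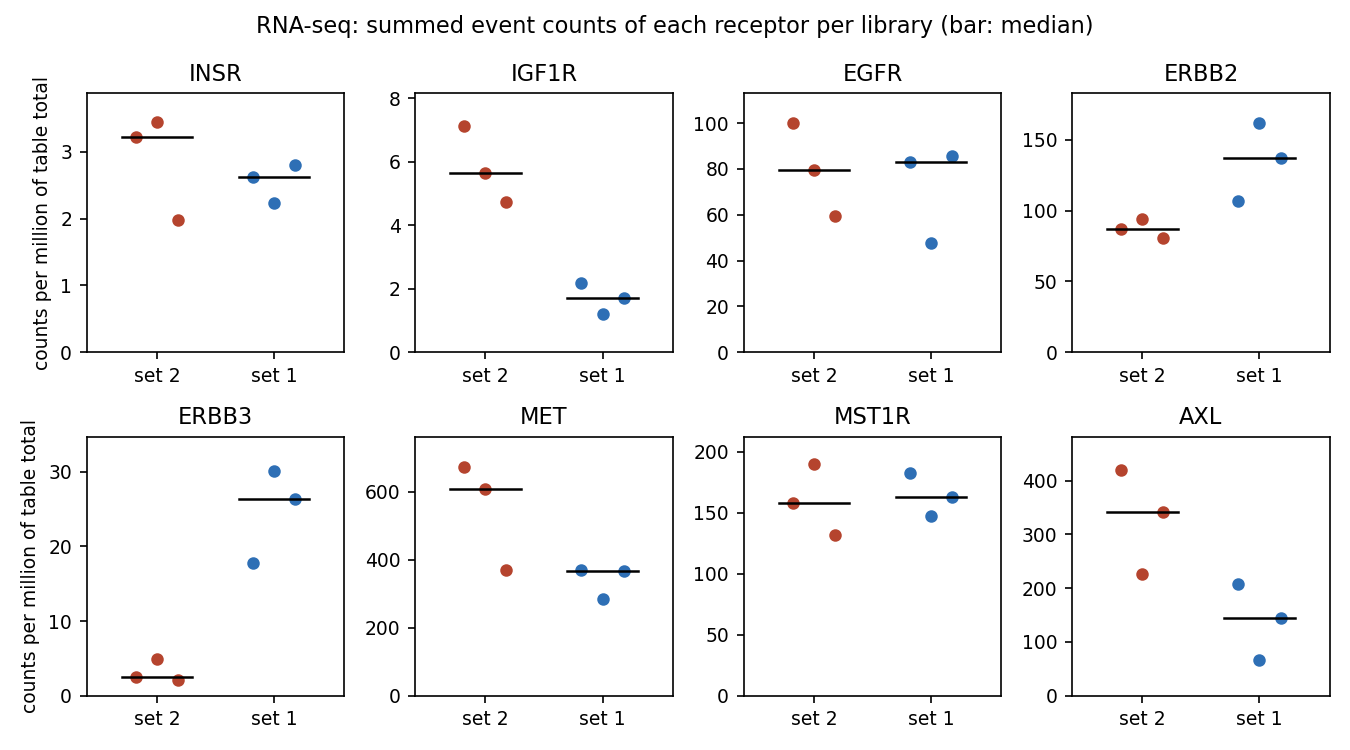
Summed event counts of each receptor in CPM of the table total (y axes from 0, different scales) in the RNA-seq libraries of set 2 (left, red) and set 1 (right, blue); points are libraries and black bars are set medians. ERBB3 lies between 2.13 and 4.90 in set 2 and between 17.8 and 30.1 in set 1, IGF1R and AXL are higher in set 2, and INSR, EGFR and MST1R overlap.

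Since the receptors differ in how many events are listed, their levels were set side by side as junction CPM per kilobase of effective length, with the median taken over a receptor's events. On this scale the order of the medians in set 2 was MET at 157, AXL at 111, EGFR at 43.2, MST1R at 24.4, ERBB2 at 19.9, IGF1R at 9.67, INSR at 6.3 and ERBB3 at 1.32. The neighbours MET and AXL, MST1R and ERBB2, and IGF1R and INSR overlapped over the libraries of set 2, and the other neighbours did not. In set 1 the order was MET at 91.4, EGFR at 46.7, AXL at 45.6, ERBB2 at 27.9, MST1R at 21.2, ERBB3 at 15, INSR at 5.27 and IGF1R at 2.7. There EGFR and AXL, AXL and ERBB2, and ERBB2 and MST1R overlapped, and the other neighbours did not, although MET overlapped AXL. ERBB3 was the lowest of the 8 in set 2 and lay above INSR and IGF1R in set 1.

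The junction from a receptor's first exon was set beside a downstream one, a comparison chosen after the values were seen. Junctions not listed as skipping counts were obtained by subtracting a known junction from an inclusion count. This takes an inclusion count as the sum of both its junctions. That held in all libraries for 855 of 927 longer exons checked (92.2%), and shorter exons were not checked. In MET, the count of the junction from exon 1 to exon 2, divided by that from exon 2 to exon 3, was 0.596, 0.638 and 0.619 in set 2 and 1.07, 0.832 and 0.845 in set 1. The ratio was lower in set 2, with no overlap. It is not a share of transcripts: transcripts with the 50 nt exon lack the junction from exon 1 to exon 2, and coverage along the gene was not tested. The junction from exon 1 to exon 2 itself had 7.14, 7.83 and 3.81 CPM in set 2 and 6.83, 3.96 and 6.75 CPM in set 1, which overlapped. The RASL-seq MET event counts only transcripts that start from this first exon, so its total covers the same end of the gene.

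AXL showed the same order. Its junction from exon 1 to exon 2, divided by that from exon 4 to exon 5, was 0.577, 0.588 and 0.667 in set 2 and 0.788, 0.793 and 0.812 in set 1, again with no overlap. In MST1R the junction from exon 1 to exon 2 over that from exon 2 to exon 3 was between 1.06 and 1.21 in set 2 and between 0.837 and 1.03 in set 1. There the ratio was higher in set 2, by a narrow margin. MET exon 10 has a longer form, by 54 nt. It made up 1.35%, 0.65% and 1.01% of both forms in set 2 and 0.308%, 1.31% and 1.27% in set 1, with overlap. These shares rest on long-form counts of 4 to 30 per library, obtained by subtraction. The event of the longer form still had an inclusion level of at least 99.1% in every library, since both forms share the downstream junction. The AXL junction from exon 4 to exon 5, both MST1R junctions and the MET exon 10 forms came from exons shorter than those checked. The check of the subtraction therefore does not cover them.

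**Figure D4:**
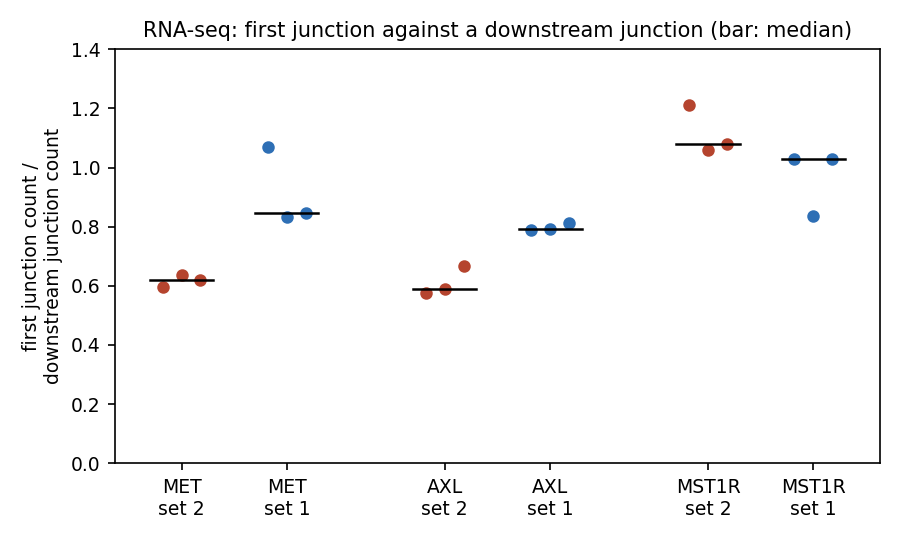
Count of the junction from exon 1 to exon 2 divided by the count of a downstream junction (y axis, from 0) for MET, AXL and MST1R in the RNA-seq libraries of set 2 (left of each pair, red) and set 1 (right, blue); points are libraries and black bars are set medians. MET lies between 0.596 and 0.638 in set 2 and between 0.832 and 1.07 in set 1, and AXL is also lower in set 2.

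The ligands of these receptors, taken from a list of 17, were read in RNA-seq, where 12 were listed and 7 had enough counts. HGF was not among the 12, and IGF2 and the MST1R ligand MST1 had too few counts. Of the 7, 2 were higher in set 2, 4 were lower and 1 overlapped, where 29.3% of all genes measured were higher and 19.1% lower. NRG2, a neuregulin, had 39.9, 59.3 and 36.8 CPM in set 2 and 0.45, 0.533 and 0.736 CPM in set 1, a ratio of medians of 74.8. NRG2 was thus higher in the set in which ERBB3, a neuregulin receptor, was lower. The EGFR ligands EGF and BTC had medians of 2.58 and 6.22 CPM in set 2 and 10.2 and 20.2 CPM in set 1, TGFA had 17.2 CPM in set 2 and 33.6 CPM in set 1, and HBEGF overlapped. Of the AXL ligands, GAS6 had a median of 24.8 CPM in set 2 and 36.3 CPM in set 1 and PROS1 had 6.31 CPM in set 2 and 4.5 CPM in set 1, both without overlap. A 229 nt exon of GAS6 was included at 75.2% to 79.1% in set 2 and 52.1% to 60.7% in set 1.

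Proteins that activate the MET and MST1R ligands, or end receptor signals, were read from the same table, and those named next were chosen after their values were seen. ST14, the matriptase that cleaves the HGF precursor, had 0.309, 0.796 and 0.303 CPM in set 2 and 231, 255 and 244 CPM in set 1. Its inhibitor SPINT1 had 10.3, 19.9 and 15.3 CPM in set 2 and 96.9, 113 and 101 CPM in set 1. Protease and inhibitor were thus both lower in set 2. CBLC, the epithelial member of the CBL ubiquitin ligases, had at most 0.262 CPM in set 2 and at least 32.2 CPM in set 1, while CBLB had a median of 38.5 CPM in set 2 and 18.6 CPM in set 1.

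**Figure D5:**
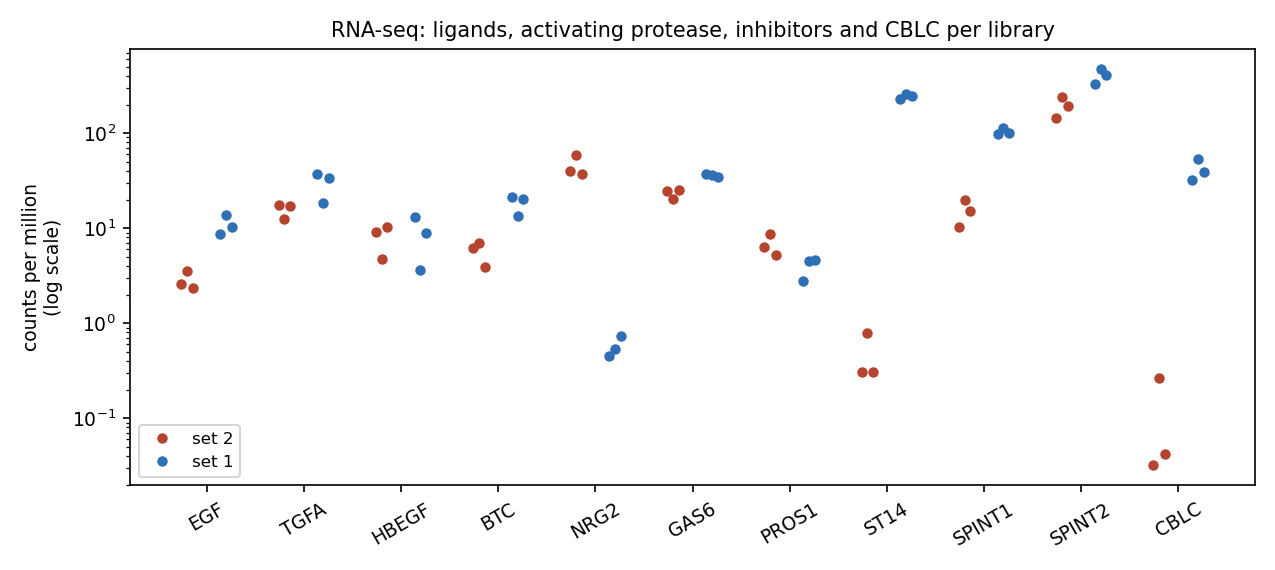
CPM of the table total (y axis, log scale) of the 7 measured ligands, the protease ST14, its inhibitors SPINT1 and SPINT2 and the ubiquitin ligase CBLC in the RNA-seq libraries of set 2 (left, red) and set 1 (right, blue); points are libraries. NRG2 lies between 36.8 and 59.3 in set 2 and between 0.45 and 0.736 in set 1, and ST14 is at or under 0.796 in set 2 and at or above 231 in set 1.

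In RASL-seq the same lists were read by line. Ligands and kindred receptors had 0 genes in the table. Of the list of negative regulators, shedding and traffic, 3 of 4 totals tested were lower in GS689, against 13.1% of all genes tested, and 0 were higher. SPINT2, an inhibitor of the HGF-activating proteases, averaged 246 ± 26.1 CPM in GS689 and 493 ± 112 CPM in PC3E (SD, n = 3 each; log2 change -0.98, limma-voom adjusted p = 0.00236). Its 171 nt exon rose by 8.19 points in GS689 (limma-moderated adjusted p = 0.0193). PTPRF, a receptor phosphatase that acts on INSR and MET, averaged 176 ± 43.5 CPM in GS689 and 364 ± 30.6 CPM in PC3E (SD, n = 3 each; log2 change -1.09, limma-voom adjusted p = 0.00114).

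PTPRF was also spliced differently. Its 27 nt exon was included at 7.7% ± 4.18 in GS689 and 37.9% ± 6.49 in PC3E (SD, n = 3 each, limma-moderated adjusted p = 0.00213). Its 579 nt exon was at 71.1% ± 4.39 in GS689 and 99.2% ± 0.732 in PC3E (SD, n = 3 each, limma-moderated adjusted p = 0.000445). In RNA-seq the 27 nt exon was at 3.6% to 4.6% in set 2 and 34.7% to 44.9% in set 1. The 579 nt exon was at 91.9% to 94.3% in set 2 and 99.5% to 99.9% in set 1. EPN2, an endocytic adaptor, averaged 377 ± 21.8 CPM in GS689 and 1170 ± 160 CPM in PC3E (SD, n = 3 each; limma-voom adjusted p = 1.55e-05). In the RAS cascade 1 of 1 gene tested was higher in GS689, against 16.6% of all genes: NF1, which turns RAS off, averaged 621 ± 42.5 CPM in GS689 and 340 ± 49.8 CPM in PC3E (SD, n = 3 each; limma-voom adjusted p = 0.00122). None of the 3 adaptor totals or the 3 PI3 kinase and mTOR totals passed limma-voom. At an exon, TSC2, an mTOR inhibitor, had 69.2% ± 11.6 in GS689 and 93.2% ± 3.63 in PC3E (129 nt exon; SD, n = 3 each; limma-moderated adjusted p = 0.00789).

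Downstream of the receptors, the RNA-seq totals of the RAS and MAP kinase list were higher in set 2 in 6 of 14 genes and lower in 1, and those of the PI3 kinase, AKT and mTOR list were higher in 8 of 16 and lower in 2. Over all genes 29.3% were higher and 19.1% lower. Adaptors and exchange factors were higher in 7 of 17 genes and lower in 2. The list of negative regulators, shedding and traffic was higher in 8 of 24 and lower in 9. Its lower genes include ST14, which activates a ligand, so these counts are not of negative regulators alone. The medians of the log2 ratios were 0.28, 0.48, 0.31 and 0.18 in the order given, with 0.11 for all genes.

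Of 8 splicing factors reported to act on INSR exon 11, 2 had RNA-seq totals whose sets did not overlap, against 48.3% of all genes. CELF1, MBNL2, SRSF1, SRSF3, HNRNPF and HNRNPH1 overlapped. MBNL1, which is known to promote inclusion of the exon, had 223, 225 and 120 CPM in set 2 and 111, 66.9 and 110 CPM in set 1, with no overlap, and HNRNPA1 had a median of 1570 CPM in set 2 and 1730 CPM in set 1. MBNL1 was thus higher in the set with the lower exon 11 level. Whether MBNL1 or another of these factors had a part in that level was not tested. The factors' own exons also stood apart by at least 5 points in 4 of 94 measured events, against 1.13% of all. A 156 nt exon of HNRNPA1 was included at 99.1% to 100% in set 2 and 45.0% to 60.9% in set 1, and a 54 nt exon of MBNL1 at 39.8% to 44.8% in set 2 and 61.0% to 63.1% in set 1. The others were MBNL2 exons of 54 nt and 95 nt, both lower in set 2. Of 9 events of these factors tested by RASL-seq, 0 were called higher and 0 lower. There the same 54 nt exon of MBNL2 had 71.2% ± 13.8 in GS689 and 78.2% ± 3.91 in PC3E (SD, n = 3 each; limma-moderated adjusted p = 0.783). In RASL-seq MBNL1 averaged 5280 ± 1020 CPM in GS689 and 3300 ± 515 CPM in PC3E, and MBNL2 averaged 405 ± 31.6 CPM in GS689 and 654 ± 99.9 CPM in PC3E (SD, n = 3 each; limma-voom adjusted p = 0.0113 and 0.00607), while SRSF3 did not pass (adjusted p = 0.224).

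Epithelial and mesenchymal markers were read in both assays. The epithelial markers were lower in set 2 in 9 of 9 measured of 11 listed, against 19.1% of all genes, with a summed level of 629 to 816 CPM in set 2 and 3290 to 3740 CPM in set 1, and CDH1 (E-cadherin) had a median of 0.638 CPM in set 2 and 107 CPM in set 1. Of the mesenchymal markers 2 of 3 measured were higher in set 2, against 29.3% of all genes. They summed to 1840 to 1860 CPM in set 2 and 517 to 689 CPM in set 1, most of it in set 2 from VIM, which had 1380, 1280 and 1460 CPM in set 2 and 50, 63 and 64.4 CPM in set 1. CDH2 was higher in set 2 too, whereas FN1 overlapped, with a median of 326 CPM in set 2 and 539 CPM in set 1. In RASL-seq all 4 epithelial totals tested were lower in GS689, against 13.1% of all genes, and VIM was higher (log2 change 4.52, limma-voom adjusted p = 3.36e-09). The part of these programmes in the receptor results was not tested. For other cell types few markers could be read, since the table lists only genes with an exon-skipping event. Of the prostate luminal markers 1 of 5 was listed, TMPRSS2, at 1.03 to 1.87 CPM in set 2 and 1.01 to 4.4 CPM in set 1. Of 4 fibroblast markers 1 was listed, COL1A1, at 55.6 to 76.7 CPM in set 2 and 7.8 to 8.92 CPM in set 1, without overlap. Of 3 neuroendocrine markers 1 was listed, ENO2, at 39.3 to 59.5 CPM in set 2 and 15.4 to 48.9 CPM in set 1. The 1 listed of 3 haematopoietic and the 1 listed of 3 hepatocyte markers were at or under 0.141 CPM.

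For each receptor the 3 genes whose log2 CPM followed it most closely over the 6 RNA-seq libraries, by Pearson's r among 9613 genes with at least 100 counts in every library, were taken as most alike. They were TSNARE1, PSD4 and SERPINB1 for ERBB3, with r between 0.9978 and 0.9984, and DPY19L1, GOLIM4 and the adaptor GAB2 for IGF1R, with r between 0.9989 and 0.9995. For AXL they were GGH, LRRFIP2 and CBFB, for MET ANKIB1, LANCL1 and ERCC6L2, for ERBB2 NOX5, DTNB and XPNPEP1, and for EGFR PRKDC, UGGT1 and ITGAV. INSR was followed by PIKFYVE, KCTD20 and ZKSCAN1. MST1R had the lowest such values, with r at most 0.9742 for HEATR5B, followed by ATP8B1 and MLLT1. These 6 libraries share their set and scaling, and the values are given with no test.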

How the data were processed

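RNA-seq and RASL-seq were made from GS689 and PC3E cells, 3 libraries per line and assay. Per the submitters' processing notes, STAR 2.5.2a, kallisto 0.43.0 and hg19 were used, the notes giving the tools no role. Each assay has 1 table deposited by the authors, with inclusion and skipping counts per event and library; the RNA-seq table also gives effective lengths. The RNA-seq header names no line, so the tests planned for RNA-seq were not run and its levels are given by library. Which RASL-seq count is the inclusion count is not labelled: the first correlated with RNA-seq inclusion (r = 0.87 over 1640 events). RASL-seq libraries held 615758 to 954120 counts, and the RNA-seq columns summed to 93842790 to 120853566, where a read can count in several events.

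Events were matched to GENCODE 29 by strand, exon and intron lengths with no conversion of coordinates; 1934 of 2023 RASL-seq and 109246 of 114816 RNA-seq events matched 1 gene. Coordinates are the files' hg19 ones. Exon numbers follow the principal transcript. RASL-seq splicing was tested over 1124 events (10 or more counts on average, 1 in each library and 10 of the rarer form) by a quasi-binomial model with dispersions moderated by limma 3.58.1 in R 4.3.3. Totals of 1317 genes were tested by limma-voom with trimmed-mean scaling. P-values were adjusted by Benjamini-Hochberg over all features, and both fits were tested on simulated data. They measure the spread between libraries, which may be technical. Alternatives were leaving out each library, a replicate term, other models, scalings and filters.

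Members and gene lists were chosen with earlier results of these data known. All 8 receptors were named, with every RASL-seq event and each RNA-seq event of at least 20 counts in every library that was under 95% and at least 5% included in some library, or whose sets stood 5 points apart. Of the pathway lists, the genes called in RASL-seq were named, and others are said to be chosen after their values were seen.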

Additional observations from a re-analysis of the deposited data

How the results depend on the processing

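The RASL-seq model called 66 events over all events tested. It called 28 when log2 ratios of the forms were fitted by limma with a pseudocount of 0.5, 25 with a minimum change of 20 points, and 46 to 86 when each library was left out in turn. Totals were called for 391 genes, for 249 from skipping counts alone, and for 255 to 449 when each library was left out. With the replicate number as a block the counts of calls were 88 events and 465 genes. Whether the numbers pair the libraries was not settled. Deviations of same-numbered libraries correlated at 0.37, 0.27 and -0.15 for totals and at most 0.04 for inclusion. Of the 6 libraries, 4 correlated best with their own number. The MET exon was also not called with a pseudocount of 5 (adjusted p = 0.243, limma) or a minimum of 20 points. Among receptors, 1 RNA-seq event in place of 2 stood apart when every library needed 50 counts, since INSR exon 11 had 47 counts in 1 library; 3 totals in place of 5 did not overlap from skipping counts alone, and 4 with median of ratios. From skipping counts alone the log2 ratio of set medians was 1.25 for INSR and 0.18 for MET. Without length correction the MST1R exon 11 medians differed by -12.0 points. Leaving out library 2 of set 1, chosen after seeing the data, changed neither count, but took AXL under 2-fold. EGFR and ERBB2 were not called in RASL-seq under the alternatives that gave them a value; their totals gave none from skipping counts alone, and ERBB2 exon 26 none without GS689 replicate 1 or with a mean of at least 20 counts. Depth limits INSR exon 11 and the RASL-seq counts of ERBB2 and AXL.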
